A study of Sus scrofa with 16 samples.

Results

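Interferon-stimulated genes were read in the colonic mucosa and the liver of pigs fed a corn starch (CS) or a raw potato starch (RPS) diet. The members were MX1, MX2, OAS1, ISG15, IRF1, IRF7, DDX58, USP18 and GBP1, which are 9 of the 6929 gene symbols found on the array, and they were taken at each non-control probe whose gene name or description names them. The rule found 19 of 43603 probes: 5 for MX1, 3 for GBP1, 2 each for MX2, OAS1, IRF1 and USP18, and 1 each for ISG15, IRF7 and DDX58. All 19 were well above background on all 16 arrays, which is the scanner software's call that a spot is brighter than its local background.

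All groups were male Duroc × Landrace × Large White pigs aged 170 d, with no genetic modification named. The CS diet held 230 g/kg purified corn starch in the growing period and 280 g/kg in the finishing period, of 50 days each, and in the RPS diet this starch was replaced by raw potato starch. Each of the 4 groups (Colon CS, Colon RPS, Liver CS and Liver RPS) had 4 one-colour arrays, labelled replicates 1 to 4, of biological replicates that the methods describe as chosen at random. Colonic samples were scrapings of the mucosa, and samples of both tissues held mixed cells, so fewer cells of a type and less RNA per cell cannot be told apart. Each group lay on a slide of its own, so slide and scan cannot be told apart from diet or tissue.

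Between 61.1% and 72.2% of the probes of an array were well above background. In the colon this share was 68.8% to 72.2% on CS arrays and 64.9% to 68.1% on RPS arrays, without overlap. Median signals before normalization were 56.3 to 70.8 on Colon CS and 34.2 to 42.5 on Colon RPS arrays. In the liver the diets overlapped in both measures. The part of the colonic difference in signal in the diet results was not tested. The tissue labels held: liver arrays had a mean log2 signal of 17.2 to 17.5 for 6 hepatocyte genes, against 4.20 to 5.68 on colonic arrays, and colonic arrays had 10.9 to 13.1 for 7 colonic epithelial genes, against 5.30 to 6.48 on liver arrays. TTR in the colon and KRT20 and CDX2 in the liver were well above background on 0 of 8 arrays. Colon CS replicate 3 and Colon RPS replicate 2 stood apart in B cell genes (3 of 6 listed B and plasma cell markers were on the array), at 11.2 and 10.9 against 4.96 to 8.92 on the other 6 colonic arrays. Colonic results are given with and without both where they differ.

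Interferons are secreted by cells that sense viral nucleic acid or by activated lymphocytes, and act through surface receptors, JAK kinases and STAT transcription factors to switch on a large set of genes. Type I interferons act through a complex that holds STAT2 and IRF9, whereas interferon gamma does not need that complex and induces IRF1 and the guanylate-binding proteins most directly. Among the members, MX1 and MX2 are dynamin-like GTPases that block virus replication, OAS1 senses double-stranded RNA and makes oligoadenylates, and GBP1 is a guanylate-binding GTPase directed at intracellular pathogens. ISG15 is a ubiquitin-like modifier, and USP18 removes it from proteins and restrains the type I receptor. DDX58 encodes RIG-I, a cytosolic sensor of viral RNA, and IRF1 and IRF7 are transcription factors of the interferon response. In the RefSeq table of the pig (assembly Sscrofa11.1), MX1 and MX2 lie on the same chromosome with 1 gene between them.

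Each probe is a 60-base oligonucleotide whose letters decide what is measured. Probes from the array files are shown in lower case and 5′ to 3′, for OAS1, ISG15, USP18 and MX1, the members with the widest spread in the liver, for IRF7, whose liver arrays followed those of ISG15 most closely, and for GBP1, the member with the largest tissue difference. For MX1 and OAS1 a pair is shown, because both read separate stretches of the same transcript and gave nearly the same order of arrays. The number after the gene is the first transcript position of the probe as the array files give it.
ISG15, 565: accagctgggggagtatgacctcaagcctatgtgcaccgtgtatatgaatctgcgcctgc
MX1, 1160: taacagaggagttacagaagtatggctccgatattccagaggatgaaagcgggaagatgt
MX1, 1934: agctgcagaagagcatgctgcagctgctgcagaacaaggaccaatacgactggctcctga
OAS1, 676: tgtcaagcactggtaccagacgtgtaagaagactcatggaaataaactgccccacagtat
OAS1, 871: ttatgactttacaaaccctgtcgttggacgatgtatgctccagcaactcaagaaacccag
USP18, 391: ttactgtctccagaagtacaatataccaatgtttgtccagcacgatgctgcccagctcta
IRF7, 1353: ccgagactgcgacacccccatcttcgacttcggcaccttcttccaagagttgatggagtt
GBP1, 818: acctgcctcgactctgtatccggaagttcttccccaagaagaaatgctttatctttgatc

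Different probes of a gene varied together from array to array. Over the deviations of the 16 arrays from their group means, Pearson's r between probes of the same gene was 0.987 to 0.999 for the 5 MX1 probes, 0.996 for the OAS1 pair, 0.994 for the IRF1 pair, 0.981 for the USP18 pair, 0.969 for the MX2 pair and 0.962 to 0.979 for the 3 GBP1 probes. Each gene was therefore described first at its lead probe, the probe with the highest mean signal over the 16 arrays. The probes printed for ISG15, IRF7 and OAS1 at position 871 are lead probes, whereas those of MX1, USP18 and GBP1 are further probes of these genes. Values are log2 signals after quantile normalization, which gives all arrays the same distribution, over the 8 arrays of a tissue for the diet comparisons and over all 16 arrays otherwise.

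In the liver, the interferon-stimulated genes were high in particular RPS arrays and did not separate the diets. For diet, RPS minus CS was fitted with limma, and a probe was called where the fold change exceeded 1.5 and the unadjusted p lay under 0.05. These are the thresholds named in the methods. By this rule 0 of 19 member probes were called, beside 3.56% of all 43603 probes, and 0 of 19 lay under an unadjusted p of 0.05 at any fold. At an adjusted p under 0.05 the count was also 0 of 19, beside 0.00229% of all probes. The smallest unadjusted p was 0.0889 and the smallest adjusted p 0.721 (limma, Benjamini-Hochberg adjustment over all probes). All 19 probes were on average higher on the RPS diet, with a median log2 difference of 0.96 and a range of 0.08 to 1.54, beside a median of -0.0038 over all probes, of which 49% were higher. Probes of a gene share their target and the genes varied together, so these 19 directions are not separate observations.

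ISG15 was at 10.99, 11.03, 16.48 and 14.14 on Liver RPS arrays 1 to 4 and at 12.66, 11.72, 12.68 and 10.75 on Liver CS arrays 1 to 4. RPS replicates 3 and 4 lay above every CS array, and RPS replicates 1 and 2 lay inside the CS range. The highest and lowest RPS arrays were 44.9-fold apart. The difference between diets was 1.21 (SE 1.27, 95% interval -1.76 to 4.17, limma unadjusted p = 0.371).

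MX1 had the same order in its upper part. Its RPS arrays read 12.55, 13.42, 15.84 and 15.19, and its CS arrays 13.13, 12.96, 14.25 and 11.76. The diets differed by 1.23 (SE 0.83, 95% interval -0.71 to 3.16, limma unadjusted p = 0.180), and the 5 MX1 probes gave 1.20 to 1.33. MX2, which lies next but one to MX1, was high on fewer arrays: 6.79, 6.79, 9.51 and 6.51 on the RPS diet against 6.52, 6.73, 7.77 and 5.99 on the CS diet. RPS replicate 4, the second highest liver array for MX1, was the lowest of the RPS arrays for MX2. The MX2 difference was 0.65 (SE 0.72, limma unadjusted p = 0.399).

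OAS1 had the widest spread of the members. It read 9.51, 6.38, 13.11 and 10.37 on the RPS diet and 6.59, 8.48, 10.90 and 7.26 on the CS diet. The RPS arrays spanned 106-fold and the CS arrays 19.8-fold, and the ranges of the diets overlapped widely. The difference of 1.54 (SE 1.51, 95% interval -2.01 to 5.08) was about as large as its standard error (limma unadjusted p = 0.342).

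USP18 was at 10.22, 10.36, 13.94 and 13.01 on the RPS diet and at 11.46, 10.33, 11.22 and 10.68 on the CS diet. Its difference was 0.96 (SE 0.88, limma unadjusted p = 0.310). The RPS arrays were set apart as for ISG15, with replicates 3 and 4 above every CS array. The RNA sensor DDX58 read 5.57, 6.48, 8.54 and 7.03 on the RPS diet and 6.28, 6.03, 6.69 and 5.35 on the CS diet, a difference of 0.82 (SE 0.62, limma unadjusted p = 0.226). IRF7 read 9.26, 9.36, 11.42 and 10.41 on the RPS diet and 9.53, 8.91, 9.68 and 8.85 on the CS diet, a difference of 0.87 (SE 0.50, limma unadjusted p = 0.122). In USP18, DDX58 and IRF7, RPS replicates 3 and 4 were the highest liver arrays, and the other RPS arrays lay within or just below the CS range.

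IRF1 and GBP1, the members tied most closely to interferon gamma, varied less than the other members in the liver. IRF1 read 10.56, 9.88, 10.40 and 10.31 on the RPS diet and 9.98, 10.22, 9.69 and 9.88 on the CS diet, a difference of 0.34 (SE 0.18, 95% interval -0.067 to 0.75, limma unadjusted p = 0.0889). GBP1 read 9.67, 9.77, 10.53 and 10.73 on the RPS diet and 9.89, 9.45, 9.79 and 10.65 on the CS diet, a difference of 0.23 (SE 0.34, limma unadjusted p = 0.514).

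**Figure D1:**
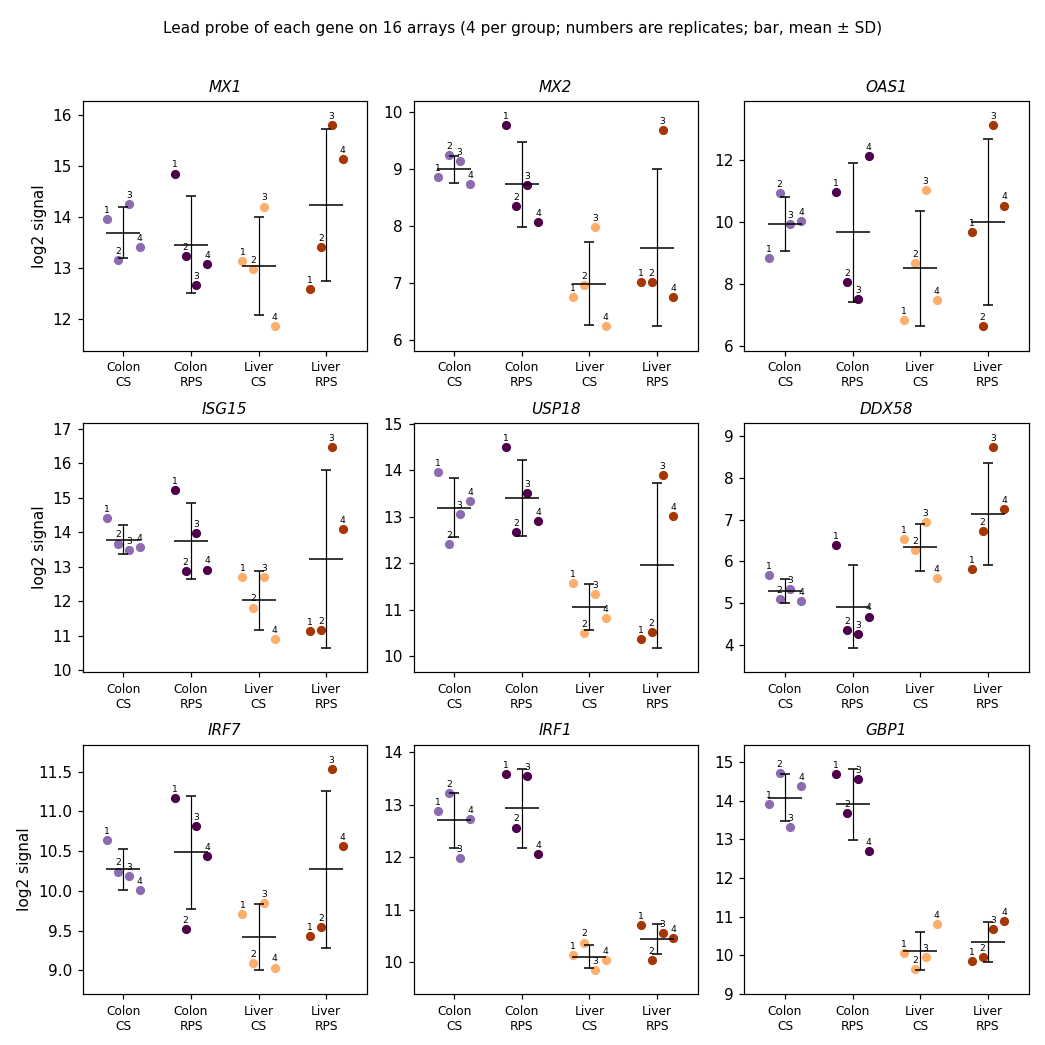
Log2 signal of the lead probe of each of the 9 genes (vertical axes, quantile normalized over 16 arrays, a separate scale for each gene) by group (horizontal axes), with a point per array, its replicate number, and the group mean ± SD (n = 4). Liver RPS replicate 3 is the highest liver array for 7 of the 9 genes, whereas IRF1 and GBP1 separate the tissues with no overlap.

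Counted over the 9 lead probes, Liver RPS replicate 3 lay above all 4 CS arrays for 8 genes and replicate 4 for 7 genes, whereas replicates 1 and 2 lay within the CS range for 7 and 8 genes. The share of all probes placed in this way was not computed. The genes also varied together, so these counts describe the arrays and are not separate observations. Exact two-sided permutation tests of the 9 lead probes gave p from 0.143 to 0.629, where 4 against 4 arrays can give no p below 0.0286. No member had RPS and CS arrays that did not overlap, beside 4.45% of all probes. With Liver RPS replicate 1 left out, the lowest RPS array for MX1, 2 MX1 probes were called, beside 1408 of all 43603 probes. Their log2 differences were 1.84 and 1.86 (limma unadjusted p = 0.0490 and 0.0475, adjusted p = 0.839 for both). With Liver RPS replicate 3 left out, 0 member probes were called. Without replicate 3 the liver differences were smaller, at -0.055 for MX2, 0.10 for ISG15, 0.27 for USP18 and DDX58, 0.43 for IRF7, 0.44 for OAS1, 0.70 for MX1, 0.11 for GBP1 and 0.31 for IRF1. With each array left out in turn, OAS1 ranged from 0.44 to 2.69, ISG15 from 0.10 to 1.93 and MX1 from 0.70 to 1.79.

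T cell genes (5 of 5 listed markers, with CD3D, CD3E, CD3G, CD2 and CD8A well above background on all 8 liver arrays) were also highest on these arrays, at a mean log2 signal of 6.73 on Liver RPS replicate 3 and 7.54 on replicate 4 against 5.69 to 6.41 on the other liver arrays. Over the deviations of the 8 liver arrays, r with the T cell level was 0.75 for USP18, 0.62 for ISG15, 0.61 for MX1 and 0.11 for MX2. The macrophage level (4 of 6 markers) was 13.1 to 13.4 on all liver arrays, and r with the mean level of the members was 0.12. For the other lists r with that level was 0.61 for T cells, 0.51 for general leukocytes, 0.40 for hepatocytes and 0.23 for B and plasma cells. It was -0.76 for colonic epithelium, -0.68 for smooth muscle, -0.52 for endothelium and -0.31 for fibroblasts and matrix. The colonic epithelial level in the liver rests partly on signals near background, with CDX2 and KRT20 well above it on 0 and MUC2 on 6 of 8 arrays. The part of these cell types in the high arrays was not tested.

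In the colon the average differences between diets were smaller. By the rule used for the liver, 0 of 19 member probes were called, beside 2.94% of all probes, and 0 of 19 lay under an unadjusted p of 0.05 at any fold. The smallest unadjusted p was 0.251 and the smallest adjusted p 0.982 (limma). The median log2 difference was -0.17 with a range of -0.60 to 0.22, beside 0.013 over all probes, and 4 probes were on average higher and 15 lower on the RPS diet. Exact two-sided permutation tests of the 9 lead probes gave p from 0.514 to 1. No member had diets that did not overlap, beside 6.51% of all probes.

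A single RPS array was high in the colon. ISG15 read 15.17, 12.91, 13.93 and 12.94 on Colon RPS arrays 1 to 4 and 14.35, 13.65, 13.48 and 13.57 on Colon CS arrays 1 to 4, a difference of -0.023 (SE 0.52, 95% interval -1.25 to 1.20). MX1 read 14.78, 13.24, 12.70 and 13.10 on the RPS diet and 13.92, 13.18, 14.21 and 13.40 on the CS diet, a difference of -0.22 (SE 0.47, 95% interval -1.32 to 0.88). DDX58 read 6.64, 4.64, 4.54 and 4.96 against 5.94, 5.37, 5.61 and 5.31, a difference of -0.37 (SE 0.47, 95% interval -1.46 to 0.73). In these genes RPS replicate 1 was the highest colonic array, and the other RPS arrays were mostly below the lowest CS array. Colon RPS replicate 1 was also the lowest colonic array in B cell genes, at 4.96, and over the 8 colonic arrays r with the B cell level was -0.84 for IRF7, -0.67 for USP18 and ISG15, and -0.21 for MX1. For the mean level of the members r in the colon was -0.67 with B cells, 0.65 with smooth muscle, 0.64 with hepatocyte genes and 0.53 with colonic epithelium. It was -0.40 with endothelium, -0.38 with general leukocytes, 0.20 with T cells, 0.14 with macrophages and 0.14 with fibroblasts and matrix. The hepatocyte level in the colon rests partly on signals near background, with TTR, APOB and ALB well above it on 0, 2 and 6 of 8 arrays. The part of these cell types in the colonic values was not tested.

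Counted over the 9 lead probes, Colon RPS replicate 1 lay above all 4 CS arrays for 8 genes, and replicates 2, 3 and 4 lay below all 4 for 5, 4 and 5 genes. As in the liver, no share over all probes was computed, and the counts are not separate observations. Replicate 1 was the highest colonic array for 7 of the 9 genes, so leaving it out lowers their RPS means. Without it, 4 member probes were called, all lower on the RPS diet, beside 1327 of all 43603 probes. The 4 were DDX58 with a log2 difference of -0.85 (limma unadjusted p = 0.00457), 2 MX1 probes with -0.91 and -0.86, and MX2 with -0.59. Their adjusted p was 0.687 to 0.917. Without both arrays rich in B cell genes, 0 of 19 were called and the differences of ISG15, MX1 and OAS1 were 0.16, 0.031 and 0.25.

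OAS1 in the colon followed its own order of arrays. It read 11.11, 8.26, 7.73 and 12.21 on the RPS diet and 9.02, 11.08, 10.11 and 10.19 on the CS diet, a difference of -0.28 (SE 1.06, 95% interval -2.76 to 2.21). RPS replicate 4, the highest array for OAS1, was the lowest of the 8 colonic arrays for MX2 and GBP1. The other members were MX2 with a difference of -0.26 (SE 0.35), USP18 with 0.19 (SE 0.45), IRF7 with 0.21 (SE 0.34), IRF1 with 0.22 (SE 0.39) and GBP1 with -0.17 (SE 0.48), with limma unadjusted p from 0.484 to 0.730. Further probes had the opposite sign to the lead probe for USP18 (-0.068), IRF1 (-0.068) and GBP1 (0.19), and another GBP1 probe gave -0.60.

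The diet differences of colon and liver were set against each other in a fit of all 16 arrays, which the calls within each tissue do not do. At the same thresholds the difference of differences, colon minus liver, was called for 0 of 19 member probes, beside 3.76% of all probes (2.04% higher and 1.72% lower). At an adjusted p under 0.05 it was called for 0 of 19, beside 0.00229%. Its median was -1.11 on the log2 scale and 18 of 19 values were below 0, with unadjusted p of 0.0969 or more and an adjusted p of 0.999 throughout (limma). For ISG15 it was -1.23 (95% interval -4.22 to 1.76) and for MX1 -1.42 (95% interval -3.51 to 0.67), so differences of several-fold between the tissues lie within the intervals. The count was 3 without Liver RPS replicate 1, all MX1 probes, beside 1614 of all 43603 probes. It was also 3 without Colon RPS replicate 1, DDX58 and 2 MX1 probes, beside 1780 of all 43603 probes. The adjusted p of these probes was 0.942 or more (limma).

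**Figure D2:**
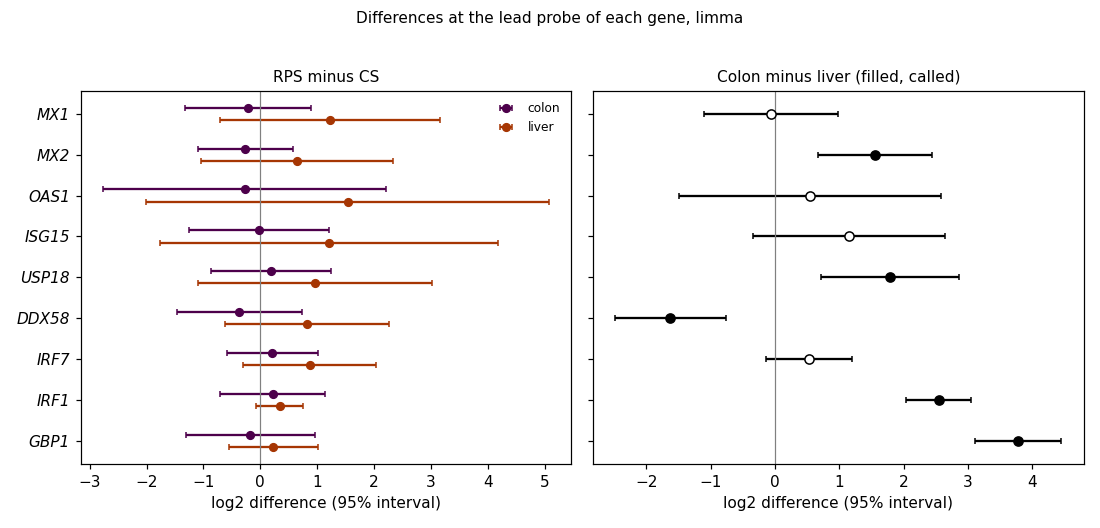
Log2 differences at the lead probe of each gene with 95% intervals from limma, for RPS minus CS in the colon and in the liver (left) and for colon minus liver (right, filled where the adjusted p was under 0.05 with a fold change above 1.5). All intervals on the left hold 0, and on the right GBP1, IRF1, USP18 and MX2 lie above 0 and DDX58 below.

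Colon and liver differed clearly in some members and not in others. A probe was called between tissues at an adjusted p under 0.05 with a fold change above 1.5, which held for 10 of 19 member probes beside 42.2% of all probes. The 10 were all probes of GBP1, IRF1, MX2 and USP18, higher in the colon, and the DDX58 probe, lower in the colon. The 9 probes of MX1, OAS1, ISG15 and IRF7 were not called. These 10 probes were called under each other normalization, background correction, filter and left-out array that was tried at the level of probes.

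GBP1 had the largest difference of the members. Its lead probe was at 14.1 ± 0.60 in Colon CS and 13.9 ± 0.93 in Colon RPS against 10.1 ± 0.49 in Liver CS and 10.3 ± 0.52 in Liver RPS (SD, n = 4 each). This was 13.7-fold higher in the colon (log2 difference 3.78, SE 0.31, limma adjusted p = 1.41e-07), and the 3 probes gave 3.27 to 3.82. IRF1 was 5.82-fold higher in the colon (log2 difference 2.54, SE 0.23, limma adjusted p = 4.44e-07), at 11.98 to 13.6 on the 8 colonic arrays and 9.86 to 10.7 on the 8 liver arrays. The colonic and liver arrays did not overlap for any of these 5 probes. They were the only such probes of the members, 5 of 19, beside 26.8% of all probes.

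MX2 and USP18 were also up-regulated in the colon, but the high liver arrays reached into the colonic range. MX2 was at 8.06 to 9.77 on colonic arrays and 6.24 to 9.68 on liver arrays, 2.94-fold higher in the colon (log2 difference 1.56, SE 0.41, limma adjusted p = 0.00533). USP18 was at 12.4 to 14.5 on colonic arrays and 10.4 to 13.9 on liver arrays, 3.46-fold higher in the colon (log2 difference 1.79, SE 0.50, limma adjusted p = 0.00739). DDX58 ran the other way, at 4.26 to 6.39 against 5.61 to 8.73 in the liver, by a log2 difference of -1.63 (SE 0.40, limma adjusted p = 0.00321).

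MX1, the neighbour of MX2, had nearly the same mean in both tissues. It was at 13.6 ± 0.72 in the colon and 13.6 ± 1.32 in the liver (SD, n = 8 each), a difference of -0.062 (95% interval -1.11 to 0.98, limma adjusted p = 0.926), and its 5 probes gave -0.70 to -0.062. OAS1 differed by 0.55 (95% interval -1.49 to 2.59, limma adjusted p = 0.654), IRF7 by 0.53 (95% interval -0.13 to 1.20, limma adjusted p = 0.17) and ISG15 by 1.14 (95% interval -0.35 to 2.64, limma adjusted p = 0.189). Without Liver RPS replicate 3, ISG15 and IRF7 were called, with log2 differences of 1.68 and 0.74 (limma adjusted p = 0.0145 and 0.0284).

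Genes of T cells and of leukocytes in general stood higher in the colon too, whereas macrophage genes did not. The T cell level was 8.32 to 10.6 in the colon against 5.69 to 7.54 in the liver, with 5 of 5 markers called higher in the colon, and the general leukocyte level (PTPRC, CD53 and LCP1, 3 of 4 listed) was 9.39 to 12.8 against 8.82 to 9.58. The macrophage level (4 of 6 listed) was 10.7 to 11.7 in the colon against 13.1 to 13.4 in the liver. Of its genes, CD14 and CD163 were called lower in the colon (log2 differences -5.86 and -2.06), and AIF1 and C1QA were not called (0.094 and -0.020). The part of these cell types in the tissue differences of GBP1 and IRF1 was not tested. Without both arrays rich in B cell genes, GBP1 and IRF1 were higher in the colon by 3.98 and 2.75 on the log2 scale.

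The spread within groups was wide for these genes beside other genes. Over the 23381 probes well above background on all arrays, the median within-group SD was 0.24 in the liver and 0.36 in the colon. In the liver the SD was 2.30 for OAS1, 1.92 for ISG15, 1.31 for USP18, 1.25 for MX1, 1.10 for MX2, 0.95 for DDX58 and 0.76 for IRF7. These 7 were above at least 97.0% of the probes, whereas GBP1 at 0.51 was above 89.6% and IRF1 at 0.25 above 52.6%. In the colon OAS1 had an SD of 1.70, above 99.5% of the probes, and the other 8 genes had SDs of 0.53 to 0.84, above 73.6% to 90.9%.

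**Figure D3:**
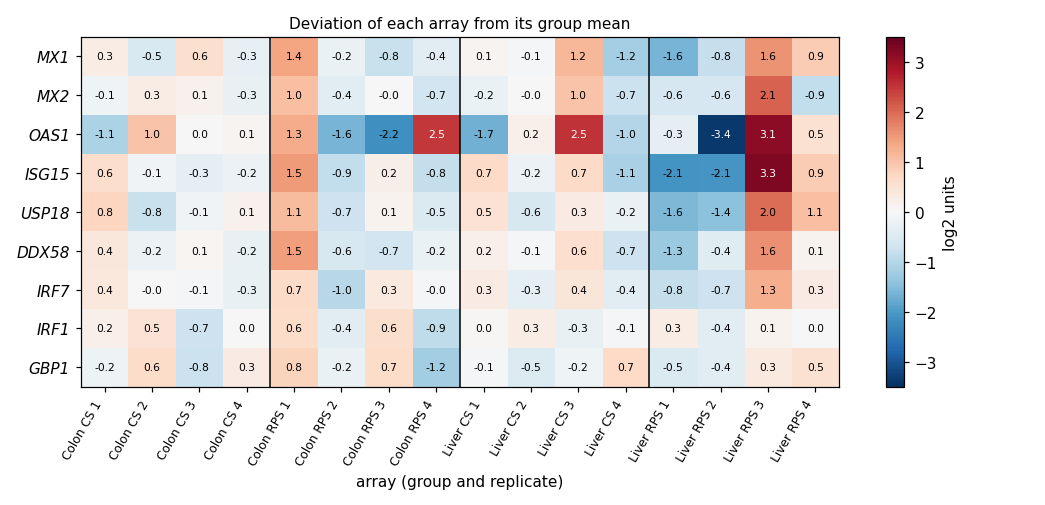
Deviation of each array from the mean of its group at the lead probe (log2 units, colour and printed value), with genes as rows and the 16 arrays as columns. Liver RPS 3 and Colon RPS 1 are above their group means for all 9 genes, OAS1 is also high on Colon RPS 4 and Liver CS 3, and the IRF1 row is pale in the liver.

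Read as a level per array, the mean over the 9 lead probes, each centred on its own mean over the 16 arrays, gave the same order. The level was -1.10, -1.28, 1.55 and 0.24 on Liver RPS arrays 1 to 4 and -1.01, -1.13, -0.29 and -1.52 on Liver CS arrays 1 to 4. In the colon it was 1.63, -0.13, 0.34 and 0.27 on the RPS arrays and 0.73, 0.69, 0.47 and 0.53 on the CS arrays. The SD was larger among RPS than among CS arrays in both tissues, 1.32 against 0.51 in the liver and 0.76 against 0.13 in the colon (n = 4 each), and this difference in spread was not tested. The highest liver array and the highest colonic array carried different replicate numbers, and the labels do not say whether a number marks the same pig in both tissues.

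The members fell into sets that varied together, described here by Pearson's r over deviations from group means, without a test, since the arrays share their normalization. Among DDX58, IRF7, ISG15, MX1, MX2 and USP18 the 15 pairs had r of 0.60 to 0.94 over 16 arrays. The closest were ISG15 with USP18 at 0.94, the modifier and the enzyme that removes it, IRF7 with ISG15 at 0.93, and DDX58 with MX1 at 0.93. MX1 and MX2, though neighbours, had 0.71. In the liver alone ISG15 and IRF7 reached 0.99 over 8 arrays.

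IRF1 and GBP1 varied together in the colon and not in the liver. Between them r was 0.96 in the colon and -0.074 in the liver. With DDX58, IRF7, ISG15, MX1, MX2 and USP18 their 12 values were 0.0083 to 0.46 over 16 arrays, 0.057 to 0.74 over the colonic arrays and -0.081 to 0.66 over the liver arrays. The highest in the colon was IRF1 with ISG15 at 0.74, above the lowest pair of the set of 6 genes at 0.43, and the highest in the liver was GBP1 with USP18 at 0.66. OAS1 followed the set in the liver, with r of 0.67 to 0.78, and little in the colon, with -0.065 to 0.41.

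**Figure D4:**
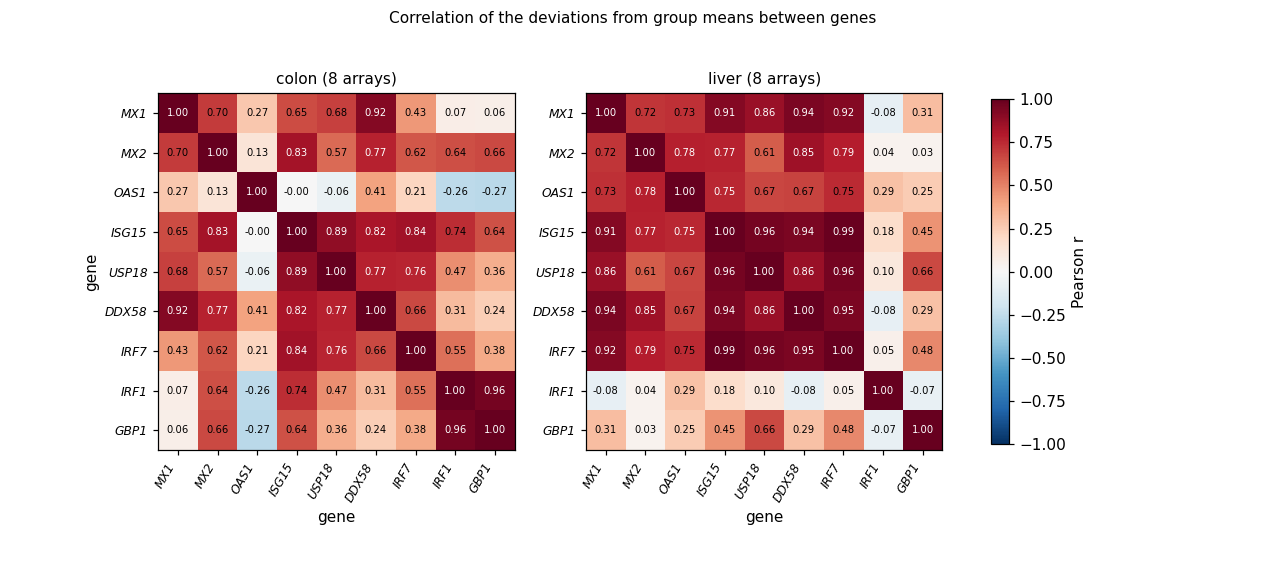
Pearson's r between the lead probes of each pair of genes over deviations from group means, for the 8 colonic arrays (left) and the 8 liver arrays (right), with colour and printed value from -1 to 1. DDX58, IRF7, ISG15, MX1, MX2 and USP18 have r of 0.61 to 0.99 in the liver, where OAS1 joins them, and 0.43 to 0.92 in the colon. In the colon IRF1 and GBP1 have 0.96 with each other and up to 0.74 with these 6 genes.

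The genes whose pattern was most like the level of the members were other interferon-induced genes. Among 4884 other genes with a probe well above background on all arrays, the 8 with the highest r over the 16 deviations were RSAD2 at 0.96, DHX58 at 0.95, IFI44 at 0.93, TRIM21 at 0.92, IFIT3 at 0.91, EIF2AK2 at 0.90, IFIH1 at 0.90 and ZBP1 at 0.89. Spearman's rho was 0.97 for RSAD2 and 0.86 or more for all 8, and r was 0.82 or more in the colon and 0.92 or more in the liver. RSAD2 encodes the antiviral radical enzyme viperin, DHX58 and IFIH1 are relatives of RIG-I, and EIF2AK2 is the RNA-activated kinase PKR. RSAD2 read 7.52, 7.43, 11.67 and 9.60 on the Liver RPS arrays and 8.02, 7.75, 8.22 and 7.05 on the Liver CS arrays, a difference of 1.29 (SE 0.94, limma unadjusted p = 0.208).

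Of 112 further genes of the interferon pathway listed by role, 67 were on the array under their symbol. In the liver 0 were called higher and 2 lower on the RPS diet, and in the colon 0 higher and 1 lower, beside 1.80% and 1.76% of all probes in the liver and 1.62% and 1.32% in the colon. The median log2 difference over the 67 was 0.12 in the liver and -0.0045 in the colon. By role, the 19 antiviral effectors had the largest median in the liver among the groups of over 1 gene, 0.45 with 16 of 19 above 0, beside 49% of all probes. The 14 interferon gamma targets had 0.12 and the 5 receptors 0.059. Where genes varied together, as the members did, these directions are not separate observations.

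The genes called within a tissue were TLR7 and IFNA1, 2 of 67 in the liver and 1 of 67 in the colon. Beside these, 1.76% and 1.32% of all probes were called lower. TLR7, an endosomal receptor for single-stranded RNA, was called lower on the RPS diet in both tissues, at the unadjusted p only. It read 8.22, 8.75, 9.59 and 7.26 on the Colon CS arrays and 6.47, 7.95, 5.99 and 6.37 on the Colon RPS arrays (log2 difference -1.76, SE 0.59, limma unadjusted p = 0.0203, adjusted p = 0.815). In the liver it read 7.23, 7.13, 7.20 and 5.75 on the CS diet and 5.36, 5.88, 5.37 and 5.86 on the RPS diet (log2 difference -1.21, SE 0.36, limma unadjusted p = 0.0104, adjusted p = 0.497). Both colonic arrays rich in B cell genes were the highest TLR7 array of their diet, and without both the difference was -1.80 (limma unadjusted p = 0.00580). In the colon TLR7 was no longer called without CS replicate 2, RPS replicate 3 or RPS replicate 4, with unadjusted p of 0.0505, 0.0551 and 0.0513 (limma). Of the 4 macrophage markers on the array, C1QA was also called lower on the RPS diet in the colon (log2 difference -0.88, limma unadjusted p = 0.0212), and AIF1, CD163 and CD14 differed by -0.42, -0.30 and 0.0013. In the liver 0 of 4 were called, with differences of -0.28 to -0.085. The macrophage level was 11.4 to 11.7 on Colon CS and 10.7 to 11.6 on Colon RPS arrays, and its part in the TLR7 difference was not tested.

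IFNA1, a type I interferon, was well above background on 2 of 4 Liver CS arrays and 0 of 4 Liver RPS arrays. Its log2 signal was 2.60 to 3.46 on the Liver CS arrays and 0.90 to 1.59 on the Liver RPS arrays. The call (limma unadjusted p = 0.000116, adjusted p = 0.245) thus rests mostly on signals not well above background, and no fold is given. IFNB1 and IFNE were well above background on 0 of 16 arrays, and IFNG on 8 of 8 colonic and 4 of 8 liver arrays. In the difference of diet effects between tissues, 1 of 67 genes was called in each direction, beside 2.04% of all probes higher and 1.72% lower. These were IFNA1, which was not well above background on most arrays, and STAT2 at -0.69 (SE 0.27, limma unadjusted p = 0.0234, adjusted p = 0.947). STAT2 differed by 0.37 between diets in the liver and by -0.33 in the colon, both under 1.5-fold (limma unadjusted p = 0.00944 and 0.197).

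Between tissues, 29 of the 67 genes were called higher in the colon and 8 lower, beside 23.4% and 18.7% of all probes. Interferon gamma targets were mostly higher in the colon, 8 of 14 with a median log2 difference of 1.43, and 1 was lower. Antiviral effectors were divided, with 6 of 19 higher, 5 lower and a median of 0.14. Among the genes with the largest differences in the colonic direction were IFITM1, a membrane protein that blocks virus entry, at 22.1-fold (limma adjusted p = 7.21e-06), and GBP2 at 9.87-fold (limma adjusted p = 8.46e-06). Those with the largest differences in the liver direction were IFIT5 with a colon minus liver log2 difference of -1.88, IFIT1 with -1.53 and SAMHD1 with -1.26 (limma adjusted p = 0.000245, 0.0139 and 0.00275). IFIT1 and IFIT5 are RNA-binding effectors, and SAMHD1 limits the nucleotides available to viruses.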

How the data were processed

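RNA of pig colonic mucosa and liver was hybridised to 16 Agilent arrays in 1 colour, 4 per group. Per the file headers, the authors' Agilent Feature Extraction (version 10.7) wrote each spot's background-subtracted intensity, not normalized between arrays. The authors also deposited log2 values, described as quantile normalized, used here as an alternative. The number of arrays limits the precision, and p-values measure the spread between these 4 samples per group.

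Control spots were left out, outlier spots set to missing, and intensities put on the log2 scale, quantile normalized and averaged per probe, with no filter on signal. Contrasts were fitted over all probes with limma 3.58.1 (lmFit and eBayes, under R 4.3.3 with the package data.table in version 1.17.8), with Benjamini-Hochberg adjustment, and the scripts were tested on simulated data. Tissue and the difference of diet effects came from 1 fit of 16 arrays with 4 group means. Figures used matplotlib 3.10.9.

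Members, lists and tests were chosen with earlier results of these data known. Besides the members, the text names up to 3 called pathway genes per direction and contrast with the largest fold, and the 8 genes closest to the members' level. IFNB1, IFNE, IFNG and the STAT2 values within a tissue or between tissues were added after their values were seen. Some genes that this rule names are not reported here. Gene names came from the array files and the RefSeq table. Promoter, protein and transcript sequences were not used here.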

Additional observations from a re-analysis of the deposited data

Results flagged for a closer look

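MX2 on Liver RPS replicate 3 was the only value that stood apart from its group by Dixon's test at the 95% level, among the 40 groups of 4 arrays examined for the 9 lead probes and the mean level. It read 9.68 on the scale of all 16 arrays, where the nearest array of the group read 7.02 and the lowest 6.75. Chance alone would give about 1 such value in 20 groups.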

How the results depend on the processing

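The number of called member probes stayed at 0 for diet in the colon, 0 for diet in the liver, 10 between tissues and 0 for the difference of diet effects with scaling to the 75th percentile, normexp background correction, the deposited log2 values, spots marked as outliers retained, a filter on probes below background and an intensity trend, and for diet also with the methods' t-test, normalization or a fit over all 16 arrays and a fold above 2. With the probes of a gene averaged, 5 of 9 genes were called between tissues. With each array left out in turn, the counts ranged from 0 to 4 in the colon, 0 to 2 in the liver, 10 to 12 between tissues and 0 to 3 for the difference of diet effects. The replicate numbers did not pair the arrays throughout: r of same-numbered deviations was -0.51 to 0.55 over 23381 probes, while each Colon CS array matched best the Liver CS array of its number, at 0.16 to 0.33, a hint from the data and not from the design. With the replicate block the counts were 0, 0, 10 and 0. Directions of uncalled lead probes turned with single arrays. For diet in the colon the ranges without 1 array were -0.50 to 0.25 for ISG15, -0.43 to 0.21 for GBP1, -1.07 to 0.43 for OAS1, -0.16 to 0.43 for USP18, -0.0065 to 0.49 for IRF1, -0.012 to 0.53 for IRF7 and -0.66 to 0.029 for MX1. For MX2 in the liver the range was -0.055 to 0.99. Between tissues it was -0.34 to 0.20 for MX1 and -0.013 to 1.07 for OAS1, and for the difference of diet effects -0.34 to 0.19 for IRF1 and -0.67 to 0.0020 for GBP1. ISG15 in the colon was 0.055 with the 75th percentile, IRF1 in the difference of diet effects 0.00055 with normexp, and without both arrays rich in B cell genes, an alternative chosen after seeing the data, ISG15, MX1 and OAS1 in the colon were 0.16, 0.031 and 0.25. The cause was not tested. Over all probes, normexp called 172, 220 and 10833 in the colon, the liver and between tissues against 1283, 1554 and 18379, and the colon gave 1968 with the 75th percentile and 2635 without RPS replicate 2. A slide block was not run because each slide held 1 group. With 4 arrays a group and spreads this wide, the intervals for OAS1 and ISG15 in the liver hold differences of several-fold in either direction.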

Other observations

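A further DDX58 probe, which the array files name by accession and not by symbol and which the RefSeq table assigns to DDX58, was well above background on 16 arrays. It gave the same directions as the member probe between tissues, with a colon minus liver log2 difference of -1.73 (SE 0.36, limma adjusted p = 0.00103), and was not called for diet in the colon (0.049, SE 0.34) or the liver (1.05, SE 0.62, limma unadjusted p = 0.131).

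STAT2, which carries type I interferon signals, was lower in the colon than in the liver by a log2 difference of -1.03 (limma adjusted p = 1.64e-05).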
